A study of Mus musculus with 3 samples.

Results

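Effector T cells and exhausted T cells are each set up by a small group of transcription factors, and 10 genes of that group were followed here: Tbx21, Eomes, Prdm1, Zbtb32, Irf4, Batf, Bcl6, Tox, Maf and Rora. They were taken by gene symbol from 23282 gene rows, and each symbol matched a single row. All 10 had enough reads to be among the 12770 rows tested.

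T cell receptor and CD28 signals turn on BATF, a member of the AP-1 family, and IRF4, which bind DNA together and open chromatin for the factors that act later. T-bet (Tbx21) and Eomes are related T-box factors that drive interferon-γ and cytotoxic genes, and Blimp-1 (Prdm1) and BCL6 repress each other, Blimp-1 on the side of terminal effector cells and BCL6 on the side of follicular helper T cells. ZBTB32 is a zinc-finger repressor that is induced by activation and limits lymphocyte proliferation and cytokine output. TOX is an HMG-box factor that is needed early for CD4 lineage choice in the thymus and later sustains exhausted T cells. c-MAF promotes IL-10, IL-4 and IL-21, and RORα is a nuclear receptor that acts in TH17 cells and in the circadian clock.

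CD4 T cells from the spleen and lymph nodes of C57BL/6 mice (C57BL/6J in the study's methods) were stimulated with anti-CD3 and anti-CD28 (2 µg/ml) for 72 h in 3 media. Complete medium (CM) was RPMI with serum, DM was RPMI without amino acids and with dialyzed serum, and DM+Met was DM with 30 µM methionine. No group carried an allele or a transgene, and all 3 received the same stimulus. The labels give neither the age nor the sex of the mice. The study's methods state female mice within a given age range, unless otherwise specified. The base of DM has no amino acids and dialysis reduces the small molecules of its serum, so DM against CM is a comparison of media and not of methionine alone. By the study's own measurement DM still held methionine, and DM+Met adds to it. Each medium had 2 libraries, described by the study as biologically independent. Nothing in the labels states the origin of the paired files, so the p-values measure the spread between these libraries, which may be technical.

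The libraries held 8504742 to 12377285 reads. The ribosomal RNA precursor Rn45s took 31.04% to 38.3% of reads in the CM and DM libraries, but 15.47% and 20.06% with methionine added. Values below are log2(CPM + 1), where CPM is the reads of a gene at a common library size set by the authors' scaling, and a fold change on this scale understates the change of a gene with few reads. A count of 0 allows up to 3 reads, at which the log2 level lay between 0.323 and 0.469. The kit reads the 3′ end of transcripts, so splice forms of the factors were not distinguished. The 8 marker genes of CD4 T cells summed to 1880 to 2580 CPM, with none at 0 reads in any library. Of these, Cd5 (1.42), Cd2 (0.84) and Cd3g (0.72) were called higher and Cd28 (−0.53) lower in DM than in CM. Cd3g and Cd28 lost that call when any of the 6 libraries was left out, Cd5 without either CM library and Cd2 without CM library 1. The Cd28 call held under only 3 of 12 alternatives. In DM+Met against CM, Cd5 (1.13) and Cd2 (0.96) were called higher. There Cd5 lost the call without either CM or either DM+Met library, and Cd2 without either DM+Met library. The 5 markers of CD8 T and NK cells summed to 73.4 and 77.2 CPM in CM and 30.6 to 39.4 CPM in DM and DM+Met, with up to 2 of the 5 at 0 reads in a library. Cd8a was called lower in both dialyzed media, a call lost when any of the 6 libraries was left out (−2.12 to −1.31 in DM and −2.29 to −1.23 in DM+Met). Klrb1c was at 0 reads in CM, so it could be among the rows tested only through its reads in the dialyzed media. Nothing is read from its higher level in DM+Met. Ncr1, which defines NK cells, had 0 to 10 reads. The 7 myeloid markers summed to 27.8 and 33.6 CPM in CM and 42.9 to 65.3 CPM in the dialyzed media. Of the 7, Lyz2 alone was called, higher in DM (2.13, adjusted p 0.0355), and it lost the call in 5 of the 6 fits that left out a library and under 4 of 11 alternatives (1.06 to 3.16), and none of the 7 was called in DM+Met against CM. B cell markers (54 to 80.7 CPM), plasma cell markers (1.34 to 8.47 CPM) and dendritic cell markers (10.1 to 29.2 CPM) had no member called in any comparison, and Pax5 and Tnfrsf17 were at 0 reads throughout. The part of these other cells in the results below was not tested. In bulk RNA, fewer cells of a type and less RNA per cell cannot be told apart.

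The members sit at separate loci, and their promoters are shown for the 3 genes that had lower levels in both dialyzed media than in CM in every library and whose window holds no annotated exon, Tbx21, Prdm1 and Zbtb32 (the upstream of its 2 windows). Each window is the 250 bases before a RefSeq start site on mouse GRCm38.p6 (the build the submitters call mm10), printed 5′ to 3′ along the gene, and capitals mark a motif match. Tbx21 spans chr11:97098007-97115331 on the minus strand, Prdm1 chr10:44437174-44528558 on the minus strand and Zbtb32 chr7:30589680-30602819 on the minus strand. The windows are chr11:97115332-97115581, chr10:44458749-44458998 and chr7:30598910-30599159. That of Tbx21 lies directly before the gene span. Those of Prdm1 and Zbtb32 lie inside the span, before an internal start site, and not at the start of the gene.
Tbx21: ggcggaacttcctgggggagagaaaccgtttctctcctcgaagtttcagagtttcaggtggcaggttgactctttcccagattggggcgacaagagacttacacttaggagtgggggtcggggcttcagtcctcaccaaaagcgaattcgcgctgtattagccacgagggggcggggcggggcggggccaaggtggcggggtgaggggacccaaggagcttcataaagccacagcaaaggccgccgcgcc
Prdm1: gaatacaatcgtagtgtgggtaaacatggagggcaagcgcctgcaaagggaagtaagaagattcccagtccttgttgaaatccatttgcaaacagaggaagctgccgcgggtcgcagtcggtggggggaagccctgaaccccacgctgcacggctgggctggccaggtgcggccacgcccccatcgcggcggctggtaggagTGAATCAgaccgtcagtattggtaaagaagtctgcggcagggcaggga
Zbtb32: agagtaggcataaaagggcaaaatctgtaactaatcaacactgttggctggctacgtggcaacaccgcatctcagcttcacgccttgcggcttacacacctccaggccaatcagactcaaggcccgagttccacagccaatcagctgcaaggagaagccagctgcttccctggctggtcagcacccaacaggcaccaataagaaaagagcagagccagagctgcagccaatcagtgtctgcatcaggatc

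On the same build, the other members span Eomes chr9:118478186-118486132 (plus strand), Irf4 chr13:30749233-30766981 (plus strand), Batf chr12:85686720-85709087 (plus strand), Bcl6 chr16:23965050-23988866 (minus strand), Tox chr4:6686353-6991557 (minus strand), Maf chr8:115703253-115706894 (minus strand) and Rora chr9:68653404-69388246 (plus strand). Eomes, Bcl6, Tox, Maf and Rora, 5 of the 10, share exonic bases with an opposite-strand gene of the GENCODE annotation, none of which has a row here, and whether the counting used strand is not given in the sources used here.

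RefSeq windows were found for 8 of the 10 members (not for Tox and Maf), with a second start site each for Zbtb32 and Bcl6, which made 10 windows. These were searched on both strands for 6 short motifs, whose matches can overlap each other. TGANTCA, a loose form of the AP-1 motif with any base allowed in the middle, was present in 1 window, that of Prdm1, and in 6.75% of all 32851 promoter windows. The match read TGAATCA and lay 48 to 42 bases before the internal start site of that window. GAAANNGAA, the motif of IRF proteins, was present in 1, that of Eomes, against 7.13% of all windows. The E-box CACGTG was found in 1 of the Bcl6 windows (6.02% of all), and the STAT motif TTCNNNGAA in both Bcl6 windows (7.02% of all) and in no other member. GGAAAA, the core bound by NFAT, lay in a window of Batf, of Bcl6 and of Rora (20.4% of all), and AGGTCA, the ROR motif, in none of the 10 (14% of all). Neither the Tbx21 nor the Zbtb32 windows held any of the 6 motifs. These matches describe letters in the windows, and the data hold no binding measurement.

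The first comparison asked what a medium low in amino acids and small serum molecules changed in activated CD4 T cells. Between DM and CM, 7 of the 10 factors passed the test (limma, adjusted p below 0.05), against 16.9% of the 12770 rows tested. Tox, Rora and Irf4 rose, 3 of 10 against 7.8% of all rows, and Zbtb32, Tbx21, Batf and Maf fell, 4 of 10 against 9.07%. The levels of the DM and CM libraries did not overlap for 8 of the 10, against 54.1% of all rows, and the 8 were the 7 called genes and Prdm1. The median size of a change, whatever its sign, was 0.96 on the log2 scale for the 10 and 0.60 for all rows tested, and the signed medians were −0.28 and 0.07. The calls of Irf4, Batf, Maf and Rora were lost without the intensity trend (adjusted p 0.0643 to 0.11) and with only the 2 media compared (0.0554 to 0.0789), which left Tox, Zbtb32 and Tbx21.

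DM+Met was compared with CM in the same fit, and both comparisons rest on the same CM libraries. Here 6 of the 10 passed the test against 15.3% of all rows. Tox and Irf4 rose (2 of 10 against 6.92%) and Zbtb32, Tbx21, Prdm1 and Maf fell (4 of 10 against 8.36%). The libraries did not overlap for 8 of the 10, against 60.9% of all rows. The median size of a change was 1.0 for the 10 and 0.57 for all rows. Without the trend the calls of Prdm1, Irf4 and Maf were lost (adjusted p 0.0684 to 0.211). Without a filter those of Irf4 (0.0818) and Maf (0.0581) were lost, and Irf4 was lost with a pseudocount of 0.1 (0.0552) and Prdm1 with only the 2 media compared (0.0813).

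The third comparison asked what methionine added to DM, which still held some, changed. None of the 10 factors passed the test between DM+Met and DM in limma, nor with limma-voom, and 7 of all rows did (0.0548%). At an unadjusted p under 0.05 there were 2 of the 10 and 1238 of the 12770 rows. The libraries did not overlap for 2 of the 10, Batf and Rora, against 41% of all rows. The median size of a change was 0.30 for the 10 and 0.32 for all rows, below the median SE of 0.44. When values were scaled by library totals in place of the deposited scaling, the median of all rows moved from 0.01 to 0.34 in this comparison and to 0.41, from 0.06, in DM+Met against CM, and values of members that changed sign with it are given below. With Rn45s left out of the totals, these medians were −0.02 and 0.18.

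**Figure D1:**
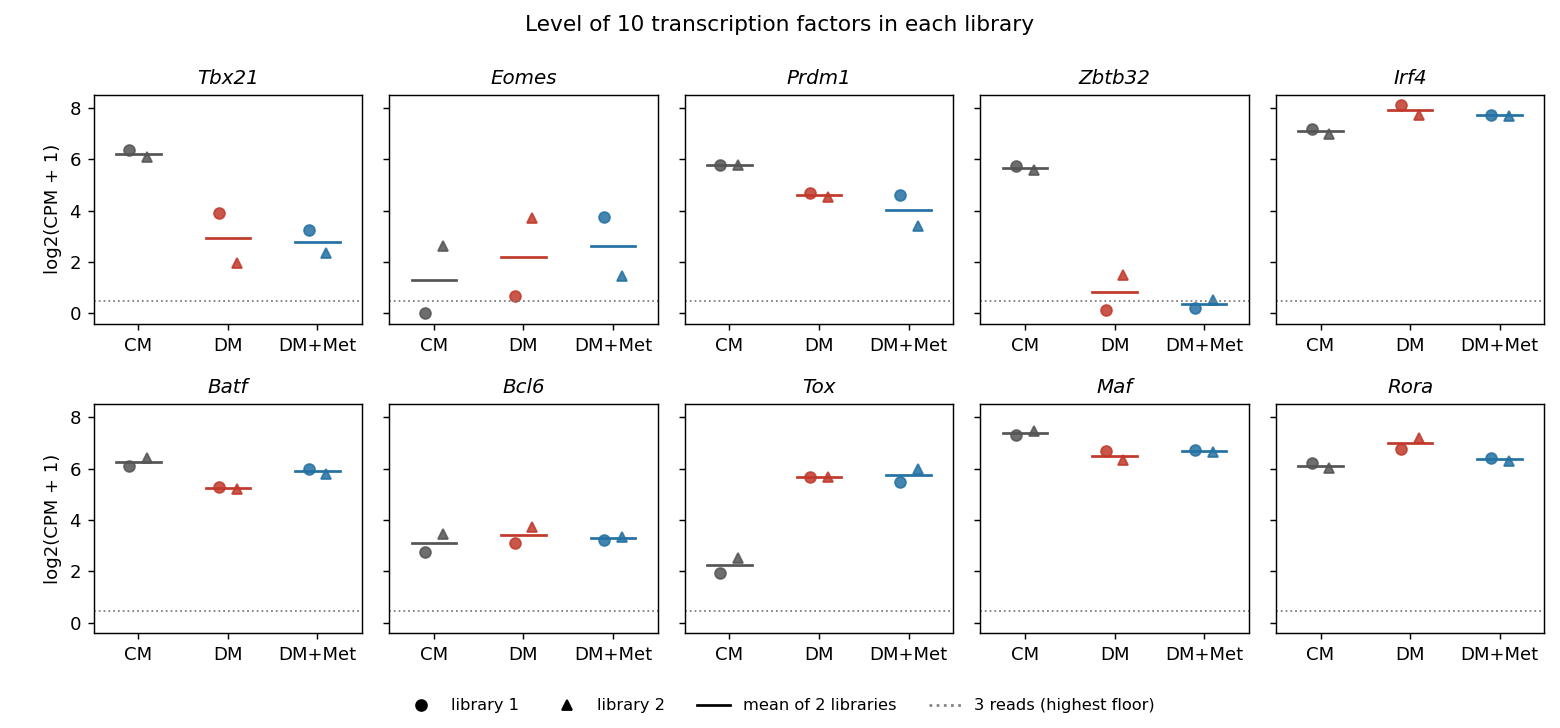
Level of the 10 factors in each library as log2(CPM + 1), by medium, with circles for library 1, triangles for library 2, a line for the mean of 2 libraries and a dotted line at 3 reads in the shallowest library (0.469). Zbtb32 lay at 5.57 and 5.73 in CM and at 0.14 to 1.51 in the other 4 libraries, Tox at 1.94 and 2.52 in CM and 5.50 to 5.97 in the others, and the 2 Eomes libraries of each medium lay far apart.

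Tbx21 encodes T-bet, the factor that specifies TH1 cells. The CM libraries held 708 and 515 reads (log2 level 6.35 and 6.07), against 137 and 33 with DM (3.90 and 1.97) and 102 and 48 with DM+Met (3.25 and 2.33). Both CM libraries lay above the other 4, and the DM and DM+Met libraries overlapped. Tbx21 fell by 3.27 in DM (SE 0.61, adjusted p 0.00691) and by 3.42 in DM+Met (SE 0.61, adjusted p 0.00528), and pooled reads were 9.16-fold higher in CM than in DM (95% counting interval 7.8 to 10.8). The DM libraries differed by 1.94 between themselves, outside counting error, with 115 to 162 reads allowed by the count of library 1 and 22.7 to 46.3 by that of library 2. The call in DM was lost without CM library 1 (−3.13, adjusted p 0.0923), CM library 2 (−3.42, 0.0692) or DM library 2 (−2.30, 0.0645), and the call in DM+Met without either CM library or either DM+Met library (−3.88 to −2.95, adjusted p up to 0.126). Between DM+Met and DM the difference was −0.14 (95% CI −1.50 to 1.22, adjusted p 0.973), and 0.17 with library totals.

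Eomes encodes Eomesodermin, the T-box relative of T-bet that marks cytotoxic and memory T cells and is usually low in CD4 cells. CM held 0 and 40 reads (log2 level 0.00 and 2.61), DM 6 and 138 (0.69 and 3.72) and DM+Met 150 and 21 (3.76 and 1.47). In each medium 1 library was high and 1 was low, and the media overlapped. The SD between libraries was 1.85 for CM, 2.14 for DM and 1.62 for DM+Met (n = 2 each), more than any difference between media. DM against CM gave 0.90 (95% CI −1.71 to 3.51, adjusted p 0.639), which turned to −0.41 without CM library 1 and to −0.62 without DM library 2. DM+Met against CM gave 1.31 (95% CI −1.30 to 3.92, adjusted p 0.497) and DM+Met against DM 0.41 (−2.20 to 3.02, 0.956). The exact 95% counting interval of the 6 reads in DM library 1 ended at 13.1 reads and that of the 138 reads in DM library 2 began at 116. The CD8 and NK markers summed to 39.4 CPM in DM library 1 and 30.6 in DM library 2, where Eomes was the higher. They summed to 73.4 and 77.2 CPM in CM libraries 1 and 2, and to 37.3 and 34.1 CPM in DM+Met libraries 1 and 2. In CM and in DM+Met the library with more Eomes reads had the higher sum, unlike in DM. The part of these cells in the Eomes levels was not tested.

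**Figure D2:**
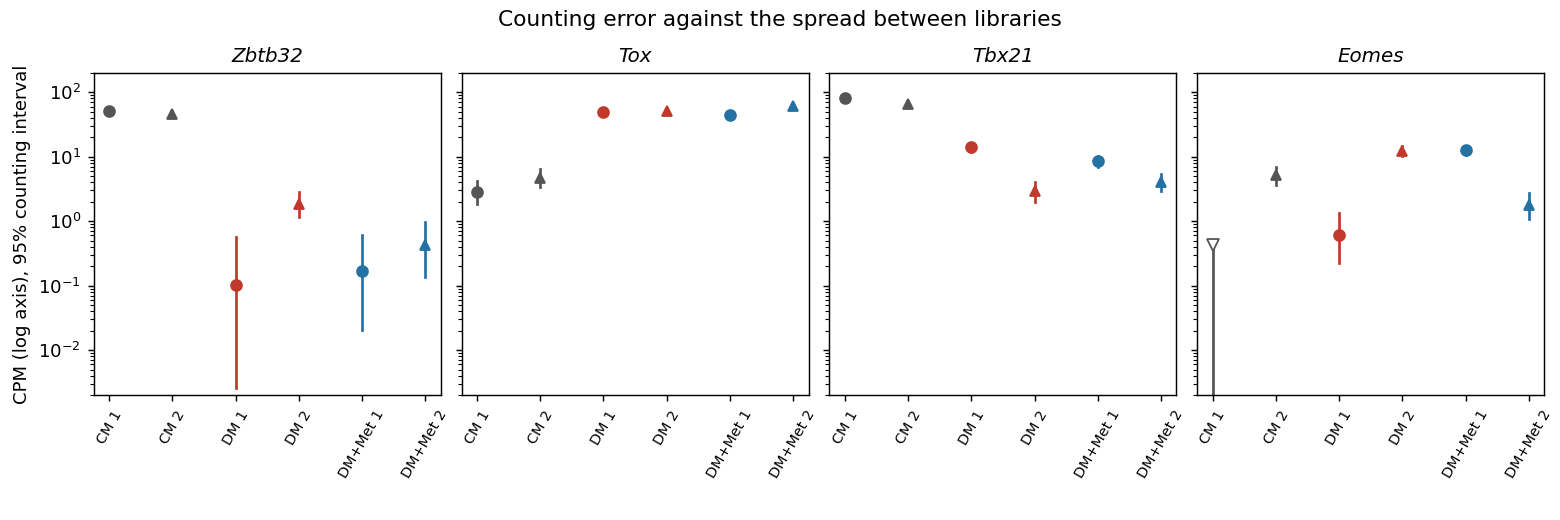
CPM of Zbtb32, Tox, Tbx21 and Eomes in each library on a log axis, with exact 95% counting intervals (circles library 1, triangles library 2, an open triangle at the upper limit for the 0 reads of Eomes in CM library 1). The intervals of Zbtb32, Tox and Tbx21 in CM are clear of those of the other media, while those of Eomes are clear of each other within each medium.

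Prdm1 encodes Blimp-1, a repressor that acts on the side of terminal effector cells, and its window above holds the TGANTCA match. CM held 472 and 420 reads (log2 level 5.78 in both), DM 242 and 252 (4.68 and 4.54) and DM+Met 281 and 115 (4.62 and 3.41). Both CM libraries lay above the other 4, and DM+Met library 2 lay below the rest. In DM+Met Prdm1 fell by 1.76 (SE 0.39, adjusted p 0.0147). In DM the difference was −1.16 (SE 0.39, 95% CI −2.04 to −0.29), with an adjusted p of 0.0682 that did not pass the threshold and that passed it with a filter of 10 reads in every library (0.0421), a mean log2 value of at least 2 (0.0423), limma-voom (0.0362) or a pseudocount of 5 (0.0495). The call in DM+Met was kept only without DM+Met library 1 (−2.36, adjusted p 0.0359). It was lost without any of the other 5 libraries, to −1.16 without DM+Met library 2 (adjusted p 0.164). The change from DM to DM+Met was −0.60 (95% CI −1.47 to 0.28, adjusted p 0.679).

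Bcl6 encodes the repressor that opposes Blimp-1 and directs follicular helper cells. With 50 to 139 reads a library, the log2 level was 2.74 and 3.46 for CM, 3.11 and 3.73 for DM and 3.24 and 3.36 for DM+Met. The 3 media overlapped. DM against CM gave 0.32 (95% CI −0.79 to 1.43, adjusted p 0.698), DM+Met against CM 0.20 (−0.91 to 1.31, 0.83) and DM+Met against DM −0.12 (−1.23 to 0.99, 0.973). Scaling by library totals turned the last value to 0.21. A difference in Bcl6 between media was not detectable with 2 libraries a medium.

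Zbtb32 encodes the BTB zinc-finger repressor described above. CM held 456 and 364 reads (log2 level 5.73 and 5.57), DM 1 and 21 (0.14 and 1.51) and DM+Met 2 and 5 (0.22 and 0.51). All 4 libraries of the dialyzed media lay below both CM libraries, and DM library 1 and DM+Met library 1 were under the floor of 3 reads. Zbtb32 fell by 4.82 in DM (SE 0.62, adjusted p 0.00132) and fell by 5.29 in DM+Met (SE 0.62, adjusted p 5.93e-04), and 0.0157% of the rows tested had a more negative change in either comparison. Pooled over libraries, 820 reads in CM against 22 in DM made a ratio of 47.5 (95% counting interval 31.1 to 76.2), and against 7 in DM+Met a ratio of 168 (81.4 to 420). Such intervals reflect counting alone and leave out the spread between libraries. No use of molecular identifiers is stated and copies of a molecule are not independent, so they may be too narrow even for counting. Both calls held without each library in turn and under all 11 alternatives in which the row was tested. The row passed the filter on reads only through the CM libraries, which favoured a higher level in CM. Of the other 4 libraries DM library 2 alone reached 0.946 CPM. With no filter the limma adjusted p was 0.0139 in DM and 0.00904 in DM+Met. The 22 DM reads and 7 DM+Met reads gave a difference of −0.46 (95% CI −1.84 to 0.92, adjusted p 0.879) between DM+Met and DM.

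Irf4 encodes the interferon regulatory factor whose level follows the strength of T cell receptor signalling. From 977 to 2677 reads a library, it stood at a log2 level of 7.18 and 6.98 with CM, 8.10 and 7.71 with DM and 7.73 and 7.68 with DM+Met. Both CM libraries lay below the other 4. Irf4 rose by 0.82 in DM (SE 0.18, adjusted p 0.0135), a 1.77-fold change, and by 0.62 in DM+Met (SE 0.18, adjusted p 0.043). The call in DM was kept without DM library 2 (1.02, adjusted p 0.0385) and lost without each of the other 5 libraries (0.63 to 0.93, adjusted p 0.0645 to 0.097). That in DM+Met was kept without either DM library and lost without either CM library or either DM+Met library (0.52 to 0.72, adjusted p up to 0.275). DM+Met against DM gave −0.20 (95% CI −0.60 to 0.20, adjusted p 0.779), and 0.16 with library totals.

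Batf, whose protein pairs with IRF4, went the other way in DM. It had 370 to 744 reads a library, at a log2 level of 6.11 and 6.40 with CM, 5.28 and 5.20 with DM and 5.98 and 5.80 with DM+Met. The order was CM, then DM+Met, then DM, with no overlap between neighbours. Batf fell by 1.02 in DM (SE 0.22, adjusted p 0.0147), a 2.02-fold change, a call that was lost when any of the 6 libraries was left out (−1.17 to −0.87, adjusted p 0.0555 to 0.0851). The difference between DM+Met and DM was 0.66 (95% CI 0.16 to 1.16), or 1.58-fold, with an adjusted p of 0.4. DM+Met against CM gave −0.36 (adjusted p 0.32), and 0.03 when values were scaled by library totals.

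Tox encodes the HMG-box factor of the exhaustion program. CM held 25 and 37 reads (log2 level 1.94 and 2.52), DM 490 and 569 (5.67 and 5.68) and DM+Met 527 and 732 (5.50 and 5.97). Both CM libraries lay below the other 4. Tox rose by 3.44 in DM (SE 0.35, adjusted p 3.90e-04) and by 3.50 in DM+Met (SE 0.35, adjusted p 2.37e-04), and 99.8% of the rows tested had a lower change in either comparison. Pooled reads were 13.4-fold higher in DM than in CM (95% counting interval 10.4 to 17.6) and 14.1-fold higher in DM+Met (10.9 to 18.5). Both calls held under all 12 alternatives and without each library in turn. Between DM+Met and DM it was 0.05 (95% CI −0.72 to 0.83, adjusted p 0.982).

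Maf encodes c-MAF. With 896 to 1391 reads a library, the log2 level was 7.32 and 7.44 for CM, 6.66 and 6.32 for DM and 6.74 and 6.63 for DM+Met. Both CM libraries lay above the other 4, and DM and DM+Met overlapped. Maf fell by 0.88 in DM (SE 0.19, adjusted p 0.0121) and by 0.69 in DM+Met (SE 0.19, adjusted p 0.0346). The call in DM was kept without DM library 1 (−1.05, adjusted p 0.0414) and lost without each of the other 5 libraries (−0.95 to −0.71, adjusted p up to 0.0829). That in DM+Met was lost without either CM or either DM+Met library (adjusted p up to 0.267), and scaling by library totals brought it to −0.30 (adjusted p 0.306). The change from DM to DM+Met was 0.19 (95% CI −0.22 to 0.61, adjusted p 0.807).

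Rora encodes RORα. With 499 to 1660 reads a library, its log2 level was 6.20 and 6.02 for CM, 6.75 and 7.21 for DM and 6.42 and 6.30 for DM+Met. The order was DM, then DM+Met, then CM, with no overlap between neighbours, the reverse of the order of Batf. Rora rose by 0.87 in DM (SE 0.21, adjusted p 0.022), a call that was kept without DM library 1 (1.09, adjusted p 0.0451) and lost without each of the other 5 libraries (0.64 to 0.96, adjusted p up to 0.115). DM+Met against DM gave −0.62 (95% CI −1.09 to −0.15, adjusted p 0.399), which was −0.26 with library totals. DM+Met against CM gave 0.25 (95% CI −0.22 to 0.72, adjusted p 0.474).

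**Figure D3:**
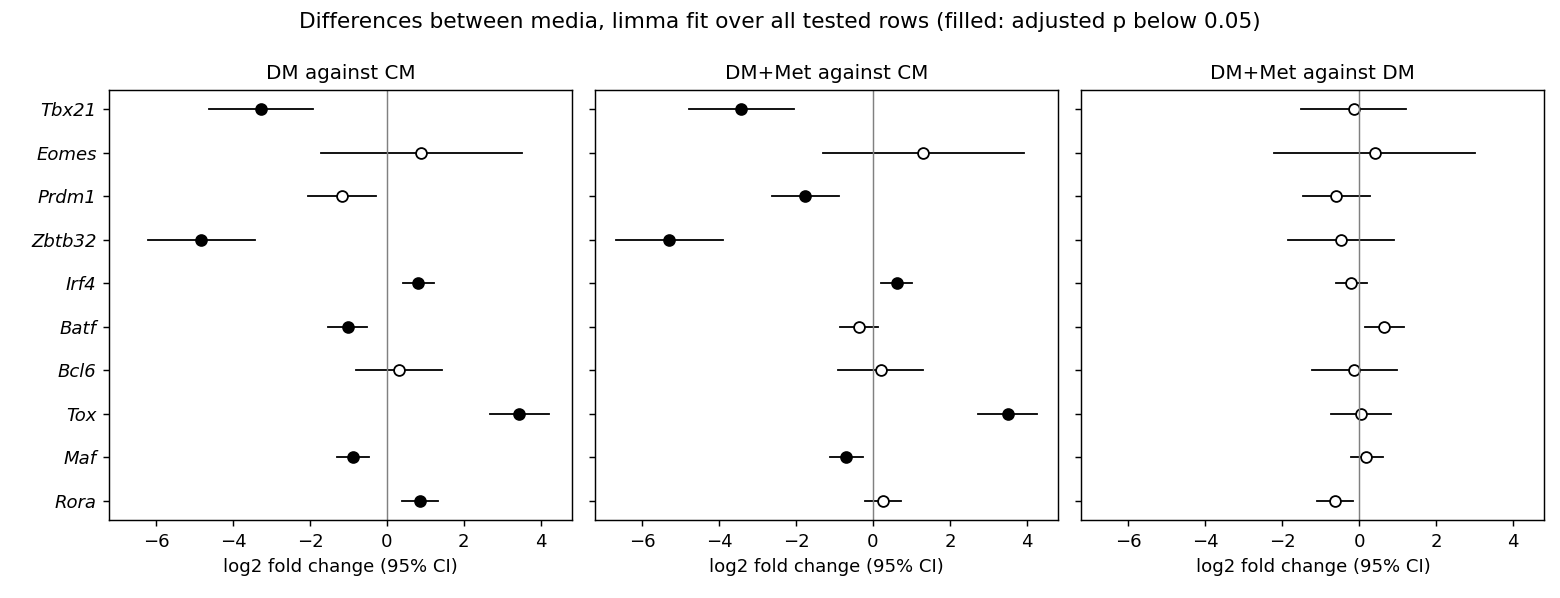
Log2 fold change of the 10 factors in the 3 comparisons with 95% confidence intervals from the limma fit over 12770 rows, filled where the adjusted p was below 0.05. There are 7 filled points for DM against CM, 6 for DM+Met against CM and none for DM+Met against DM, and the intervals of Eomes are the widest of the 10 in each panel.

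Across the 6 libraries, Tox varied against Zbtb32 (Pearson r = −0.97) and Tbx21 (−0.94), Tbx21 varied with Maf (0.96), and Batf varied against Rora (−0.93). These are descriptions over 6 points that share 3 media and their scaling. The rows most like each member were Raph1, H2-DMb1 and Whsc1 for Tbx21 (r 0.990 to 0.994), Rhbdd3, Arid5a and Nek6 for Eomes (0.981 to 0.988), Emilin2, Hmgb3 and Mboat2 for Prdm1 (0.991 to 0.996), and Ctla4, Smc2 and Gzmb for Zbtb32 (0.999 each). For Irf4 they were Tmem251, Zfp94 and Tmem87a (0.992 to 0.999), for Batf Ccl2, Pebp1 and Akr1e1 (0.990 to 0.991), and for Bcl6 Cstad, Btrc and Btbd7 (0.985 to 0.987). For Tox they were Rassf5, Sap30l and Zswim1 (0.997 to 0.998), for Maf Pml, Ndufb9 and Rassf1 (0.993 to 0.996), and for Rora Rgs1, Actr3 and Clint1 (0.983 to 0.987). From 92 rows for Eomes to 990 rows for Zbtb32 had an r above 0.9, so these names stand among many.

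Genes that the factors act on or with were counted in 8 lists of 107 genes, of which 99 were tested. Between DM and CM 19 rose and 21 fell, and between DM+Met and CM 16 rose and 21 fell, which is 40.4% and 37.4% of the 99 against 16.9% and 15.3% of all rows. Of all rows tested, 7.8% rose and 9.07% fell between DM and CM, and 6.92% rose and 8.36% fell between DM+Met and CM. Genes were put on these lists with earlier results known, so nothing particular to the lists is read from these shares or from the counts of single lists below. None of the 99 passed the test between DM+Met and DM in limma, with 10 at an unadjusted p under 0.05.

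Of 14 tested genes that T-bet and Eomes induce, 6 fell and 1 rose between DM and CM (median −0.56, all rows 0.07), beside 16.9% of all rows called. Gzmb, the granzyme of cytotoxic granules, fell by 4.58 (SE 0.32, adjusted p 5.39e-05), from 6698 and 4471 reads to 179 and 438, with 237 and 263 after methionine was added. Nkg7, a protein of the same granules, fell by 3.48 (adjusted p 9.21e-04), from 401 and 406 reads to 40 and 33, with 151 and 269 in DM+Met. Ifng, the TH1 cytokine, fell by 2.93 (adjusted p 0.0176), from 79 and 148 reads to 1 and 24, and Il12rb2, a receptor chain for IL-12, fell by 2.79 (adjusted p 0.0108). Gzmb and Nkg7 kept the call in DM without each library. Ifng kept it only without DM library 2 (−3.68, adjusted p 0.0485, and up to 0.111 without the others) and lost it under 4 of 11 alternatives (−4.39 to −1.60). Il12rb2 kept the call only without CM library 2 (the others up to an adjusted p of 0.0767). The chemokine gene Ccl3 rose by 2.18 (adjusted p 0.0267), a call not checked under the alternatives or without a library. Cd8a gave −1.72 (adjusted p 0.0323), a call kept in 0 of the 6 fits that left out a library and under 8 of 12 alternatives, and Cd8b1 gave −0.82 (adjusted p 0.225), and the part of CD8 T cells in the cytotoxic genes was not tested. In DM+Met against CM the list had 5 lower and 1 higher, and Nkg7 (−1.47, adjusted p 0.0412) kept its call there in 0 of the 6 fits that left out a library (adjusted p up to 0.343) and under 5 of 12 alternatives.

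Of 8 tested inhibitory receptor genes that are linked to TOX, 1 rose and 2 fell in DM, beside 16.9% of all rows called. Tox itself rose. Ctla4, which encodes a brake on CD28 signals, fell by 1.44 (SE 0.18, adjusted p 0.00105), with 3458 and 2943 reads in CM and 1199 to 1851 in the other 4 libraries, and kept the call without each library. Lag3, a receptor for MHC class II, fell by 2.10 (adjusted p 0.0256), a call lost when any of the 6 libraries was left out (adjusted p 0.0583 to 0.0888) and under 4 of 12 alternatives. Btla, the receptor for HVEM, rose by 1.31 (adjusted p 0.0135) and kept the call only without CM library 2 and under 10 of 12 alternatives. Pdcd1, which encodes PD-1, gave 2.27 with an adjusted p of 0.0721. The list median was 0.12 against 0.07 for all rows. In DM+Met against CM 1 rose and 3 fell.

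Of 5 tested genes that Blimp-1 represses, 2 rose in DM and none fell, beside 16.9% of all rows called. Tcf7, which encodes the memory and stem-like factor TCF-1, rose by 1.60 (adjusted p 0.0137), a call kept only without DM library 1 and under 10 of 12 alternatives, and Ccr7, the lymph node homing receptor, rose by 0.77 (adjusted p 0.00813), a call lost without either CM library (adjusted p up to 0.0762). Of 14 follicular helper genes linked to Bcl6 and Maf, 1 rose, Btla, and 2 fell, beside 16.9% of all rows called, and nothing is read from that share. Il10 fell by 4.49 (adjusted p 0.00328), from 372 and 205 reads to 0 and 15, with 46 and 7 in DM+Met. Il21 fell by 3.79 (adjusted p 0.00237), from 282 and 393 reads to 11 and 36, with 78 and 42 in DM+Met. Both are cytokine genes that c-MAF promotes. The Il10 call was lost without CM library 1 or DM library 1 (adjusted p up to 0.0734) and the Il21 call without DM library 1 (adjusted p 0.05). In DM+Met against CM the Blimp-1 list had 1 higher and none lower, and the follicular helper list 2 higher and 2 lower.

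**Figure D4:**
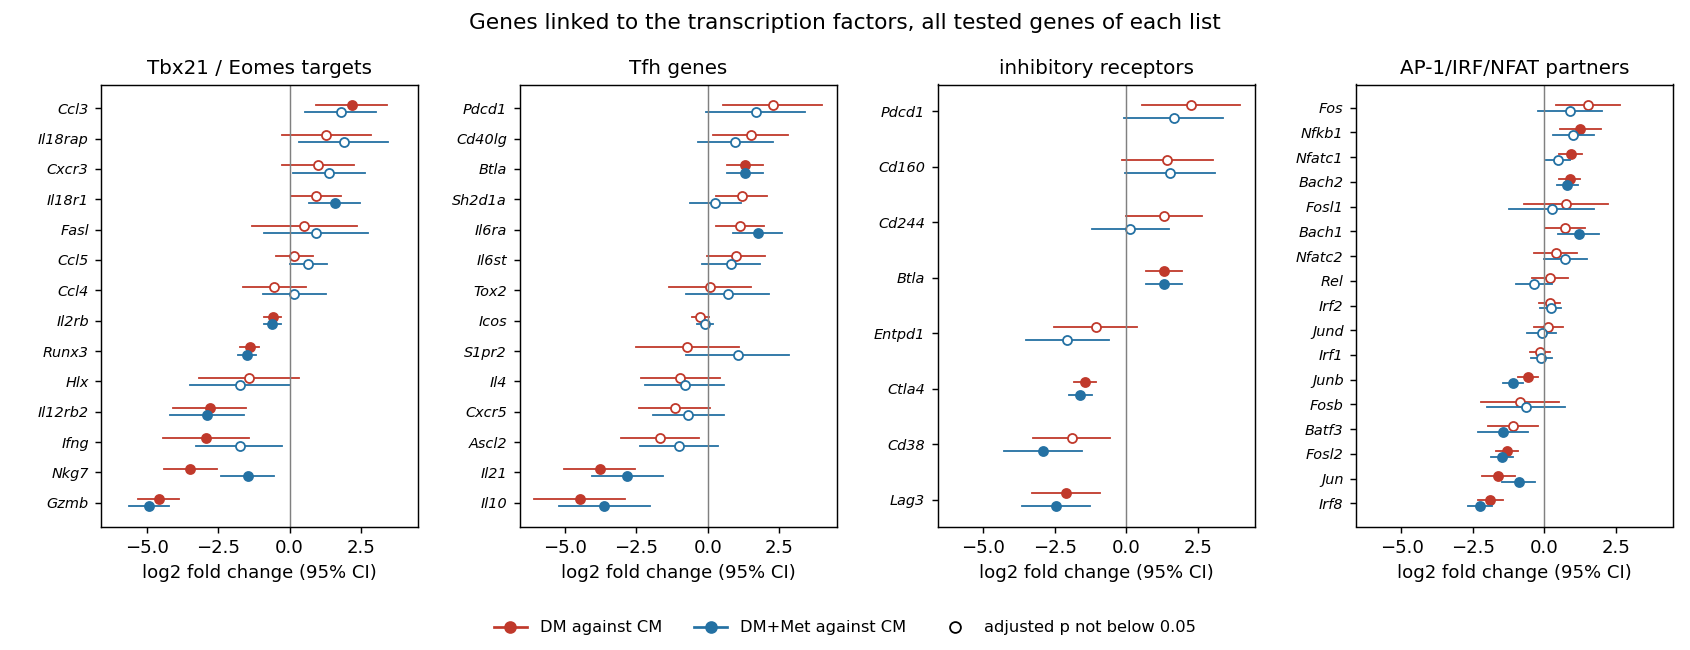
Log2 fold change against CM with 95% confidence intervals of all tested genes in 4 lists linked to the factors, red for DM and blue for DM+Met, filled where the adjusted p was below 0.05. Gzmb, Nkg7, Il10, Il21, Lag3, Ctla4 and Irf8 are filled to the left of 0 in both media, and Btla and Bach2 to the right.

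Of 17 tested AP-1, IRF and NFAT genes, 3 rose and 4 fell in DM (median 0.18), beside 16.9% of all rows called. Irf8, the closest relative of Irf4, fell by 1.89 (SE 0.20, adjusted p 4.57e-04), with 2805 and 3271 reads in CM and 892 to 1075 in the other 4 libraries, while Irf4 rose. Fosl2 fell by 1.32 (adjusted p 0.00138) and Jun by 1.61 (adjusted p 0.00355), both subunits of AP-1 like Batf. Irf8 and Fosl2 kept their calls without each library, and Jun lost its call without CM library 1 (−1.57, adjusted p 0.0584). Nfkb1, an NF-κB subunit, rose by 1.26 (adjusted p 0.0257), a call kept only without CM library 1 and under 9 of 12 alternatives. In DM+Met against CM 2 rose and 5 fell. Among 9 tested paralogs of the members, Irf8 fell between DM and CM, and 2 fell in DM+Met. Rorb, the sister gene of Rora, had 64 and 28 reads in DM and 0 in the CM and DM+Met libraries. It was called higher in DM, but it passed the filter on reads only through the DM libraries and so had to differ, and the call was lost without either CM or either DM+Met library (adjusted p up to 0.104) and under 2 of 10 alternatives (0.89 to 6.01).

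Of 30 other tested factors of T cell lineages and memory, 11 rose and 7 fell in DM (median 0.51, all rows 0.07), beside 16.9% of all rows called. In DM+Met against CM 10 rose and 6 fell, beside 15.3%. Ikzf2, which encodes Helios, rose by 3.31 (SE 0.17, adjusted p 1.44e-05), from 267 and 227 reads to 3296 and 3122. Klf2, the quiescence factor, rose by 2.53 (adjusted p 3.88e-04) and Bcl11b, the T cell identity factor, by 1.77 (adjusted p 9.73e-05). Ahr, the aryl hydrocarbon receptor, fell by 1.91 (adjusted p 0.0308). The first 3 kept the call without each library and Ahr lost it when any of the 6 was left out (adjusted p up to 0.139). Of 12 clock genes linked to Rora, 2 passed the test between DM and CM, beside 16.9% of all rows, and 1 between DM+Met and CM, beside 15.3%. Cry1 rose by 1.03 (adjusted p 0.0407) and Nfil3 fell by 2.02 (adjusted p 0.0075) in DM, and Nfil3 passed the test, lower, in DM+Met. Cry1 lost the call in DM when any of the 6 libraries was left out and Nfil3 without any but DM library 1 (adjusted p up to 0.166 and 0.095). The Cry1 call was also lost under 4 of 12 alternatives and the Ahr call under 3.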

How the data were processed

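CD4 T cells of 3 media were profiled with a 3′-end RNA kit (QuantSeq, 500 ng of total RNA), 2 libraries a medium. The deposited tables hold log2(CPM + 1), scaled by TMM as the study states. The submitters' processing notes name Bowtie2, bedtools and mm10 without roles or versions, and the annotation, the counting rule and the treatment of strand are not given in the sources used here. The log base and the added 1 were read from the values, which moved in equal steps of 1 read (at least 99.776% of values up to 300 reads within 0.1 of a whole number), so reads and depth (8504742 to 12377285) were recovered.

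Levels were fitted with limma 3.58.1 in R 4.3.3, with an intensity trend, all 3 media in 1 fit, no covariate, and Benjamini-Hochberg adjustment over 12770 rows that reached 0.946 CPM in 2 libraries and 15 reads in total. Tests were two-sided at 0.05, and every adjusted p is from this fit unless stated. Counting intervals are exact at 95% and cover counting error only (scipy 1.17.1). The replicate libraries differed by more than counting noise (chi-square per degree of freedom 18.2 to 35.9).

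The members and the gene lists were chosen with earlier results of these data known, so counts over them are descriptions. All 10 members are named, and from each list up to 4 called genes with the largest change in DM against CM. Pdcd1, Cd8b1, Ccl3, Klrb1c, Ncr1, Pax5, Tnfrsf17 and Bach2 lie outside this rule and were named after their values were seen. In all, 12 alternatives and the omission of each library were run. For single genes they were read only for the members and the genes named by this rule.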

Additional observations from a re-analysis of the deposited data

How the results depend on the processing

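With 2 libraries a medium, the factors with modest changes depended on how the spread was estimated, and Zbtb32 and Tox kept their calls in both CM comparisons under every setting in which they were tested. Zbtb32 passed the filter on reads only through the CM libraries, which favoured a higher level in CM. Between DM and CM, 7 of the 10 passed the test, 3 without the intensity trend and 3 with only the 2 media compared, and between 2 and 5 when a library was left out. Between DM+Met and CM, 6 passed, 3 without the trend, and between 2 and 5 when a library was left out. Between DM+Met and DM the count was 0 under every setting. Over all rows the count of calls went from 2154 to 1329 without the trend and 795 with only the 2 media compared (DM against CM), from 1952 to 944 without the trend and 1265 without a filter (DM+Met against CM), and from 7 to between 0 and 55 (DM+Met against DM), 55 with library totals. Leaving out a library gave 541 to 1061, 268 to 1622 and 0 calls. With library totals 76.3% of the calls of DM+Met against CM were higher, against 45.3%. With Rn45s left out of the totals this share was 57.4%, and 7 rows were called in DM+Met against DM.

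Scaling by library totals reversed Tbx21 (0.17), Irf4 (0.16) and Bcl6 (0.21) in DM+Met against DM and Batf (0.03) in DM+Met against CM, none of them called. With Rn45s left out of the totals, these values were −0.17, −0.24, −0.16 and −0.24, each with the sign of the main fit. Leaving out a library reversed values that were not called, over these ranges. DM against CM: Eomes −0.62 to 2.41 and Bcl6 −0.04 to 0.68. DM+Met against DM: Tbx21 −1.11 to 0.82, Eomes −1.11 to 1.93, Prdm1 −1.20 to 0.01, Zbtb32 −1.15 to 0.22, Bcl6 −0.43 to 0.19 and Tox −0.18 to 0.29. DM+Met against CM: Bcl6 −0.16 to 0.56. A fit with the library number as a replicate block gave 7, 0 and 6 members called, the same counts. The numbers are not in the labels and same-numbered libraries did not deviate together (r −0.03 to 0.00), so they share only a number. Over the settings that keep all libraries, 329 values of members kept their direction and their side of the threshold, 17 lost a call, 4 gained one and 4 were reversed. Eomes and Zbtb32 had no value with the filter of 10 reads in every library. The list genes named by size of change were checked in this way where they were called in DM+Met against CM. Of these, Gzmb, Irf8, Fosl2, Ikzf2, Bcl11b and Ctla4 kept the call without each library, and each of the others lost it without at least 1. Foxp3, Myb and Bach2 were not put to this check. The causes of these changes were not tested. A fit that leaves out a library also has fewer libraries.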

Other observations

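Foxp3, the factor of regulatory T cells, was chosen from the list of other lineage factors after its values were seen. CM held 305 and 126 reads, DM 505 and 306, and DM+Met 1755 and 2006, with both DM+Met libraries above the other 4. DM+Met was higher than CM by a log2 difference of 2.68 (SE 0.38, adjusted p 0.00168 in limma), and DM+Met against DM gave 2.05 (SE 0.38, 95% CI 1.19 to 2.90) with an adjusted p of 0.158 that did not pass the threshold. Myb, a factor of T cell survival and memory, also chosen after its values were seen, held 316 and 186 reads with CM, 618 and 539 with DM, and 1673 and 1899 with DM+Met. Against CM, Myb was higher by 0.88 in DM (SE 0.26, adjusted p 0.0437) and by 2.31 in DM+Met (SE 0.26, adjusted p 4.65e-04), and DM+Met against DM gave 1.43 (SE 0.26, adjusted p 0.156), short of the threshold. Whether the calls of Foxp3 and Myb hold under the alternatives or without a library was not checked.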
